A study of Bos taurus with 27 samples.

Results

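Messenger RNA of the translation initiation and elongation factors was followed in rumen epithelium (RE), the layered tissue through which cattle take up the fatty acids that rumen microbes produce. The members were all genes whose array name began with EIF (eukaryotic initiation factor) or EEF (eukaryotic elongation factor) and a digit. There were 61 such genes of 14952 gene names on the array, and each had 1 probe of 60 bases, so that no choice between probes arose. The same 9 Japanese Black cattle, castrated bulls with a rumen fistula, were biopsied in the early stage at 14 months of age, in the middle stage at 21 months and in the late stage at 29 months. All 3 stages were fed a high-grain diet of concentrate and rice straw, and no stage without it was sampled, so age, duration of feeding and diet composition cannot be told apart. One-color arrays (cyanine 3) were run with 1 biopsy on each, 9 per stage and 27 in all. The middle stage was compared with the early stage (first period), the late with the middle stage (second period) and the late with the early stage (total period), within animals. Animals were matched across stages by the number in the array titles, an assumption.

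Translation of an mRNA begins when eIF2 carries the initiator tRNA to the small ribosomal subunit, helped by eIF1, eIF1A, eIF3 and eIF5. The eIF4F complex, which consists of the cap-binding protein eIF4E, the helicase eIF4A and the scaffold eIF4G, brings the mRNA to that subunit. During elongation eEF1A delivers the aminoacyl-tRNAs, the eEF1B subunits reload eEF1A with GTP, and eEF2 moves the ribosome along the mRNA. Many of these factors are among the most abundant proteins of growing cells, and the mRNAs of several elongation factors are translated under the control of TOR signaling.

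The probes of 6 members that fell and rose most among those above background are shown, since each of their values was read through that single stretch. The position is that listed in the deposited files for the cow assembly bosTau6 (UMD 3.1), which list each in minus order, and the transcript part (coding or UTR) was not determined here. The probes of EEF1A1, EEF1G, EIF2S2, EIF3F and EIF3G covered more of the genome than their 60 bases in that listing, whereas that of EIF6 lay in a single stretch. Each is written 5′ to 3′ in lower case, and each had at least 1 forward reading frame without a stop codon.
EEF1A1, chr9:13234851-13234988: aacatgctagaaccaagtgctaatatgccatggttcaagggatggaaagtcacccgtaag
EEF1G, chr29:41615360-41617929: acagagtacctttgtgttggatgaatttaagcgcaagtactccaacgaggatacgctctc
EIF6, chr13:65209162-65209221: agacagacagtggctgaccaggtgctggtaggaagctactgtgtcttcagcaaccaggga
EIF2S2, chr13:64051139-64051847: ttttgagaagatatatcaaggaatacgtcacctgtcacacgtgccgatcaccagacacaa
EIF3F, chr15:45131426-45131865: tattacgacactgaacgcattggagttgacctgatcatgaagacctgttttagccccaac
EIF3G, chr7:15899273-15899433: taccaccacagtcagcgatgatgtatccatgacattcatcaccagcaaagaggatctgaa
The longest run of bases shared by any pair of the 61 member probes was 11, over 1830 pairs.

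Levels are given as log2 of the processed signal minus the median of the array, so a level of 0 is the median probe of that array. Levels of different genes were not set against each other. Signal was lowest in the middle stage, where the median processed signal of an array was 8.22 to 28.7, against 35.2 to 48.6 in the early and 32.2 to 47.0 in the late stage, and where 48.5% to 71.5% of probes were called well above background, against 68.8% to 78.1% and 68.4% to 73.7%. The middle array of animal 4 had the lowest median signal. Where a called change whose fold is given was lost without that animal, or moved by over 1.5 times, its value without it is given. Changes that were not called are not followed in this way, and some moved as much. That of EIF1AD in the first period went from −0.19 to −0.10. Slide 1 held 8 early arrays, slide 2 held 1 early and 7 middle arrays, slide 3 held 2 middle arrays, and slides 4 and 5 held the late arrays. For the second and total periods slide, scan day and stage cannot be told apart. Of 10 markers of stratified epithelium, 8 were well above background on all 27 arrays, among them KRT5 and KRT14, whereas the mucosal keratin KRT4 was so on none. Epithelial markers moved as well, but not all the same way. IVL fell by 1.99 in the first period and rose by 2.57 in the second, and DSP fell by 0.50 and rose by 0.80. KRT14 fell by 1.12 in the first, whereas DSG3 rose by 0.45 and then fell by 0.44. Of the 10 markers, 4 were called lower and 2 higher in the middle than in the early stage, KRT4 among the latter. Their median log2 fold change there was 0.04. Between the middle and late stages 2 were called higher and 2 lower. The RNA extraction text of the labels names other tissues than RE, whereas the tissue label, the titles and the methods name RE. Of 5 red blood cell markers, HBA alone passed that call on every array, and the log2 of the summed signal of the 5 was 5.24 to 6.06 in the early, 6.68 to 7.61 in the middle and 5.45 to 6.46 in the late stage. The corresponding range for 6 smooth muscle markers was 6.82 to 8.62, 6.66 to 9.76 and 6.98 to 7.74. The part of these marker changes in the results below was not tested.

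In the first period the members split into a group that fell, headed by EEF1A1, EIF6, EEF1G and EIF3G, and a group that rose, headed among the probes above background by EIF3K. By limma with Benjamini-Hochberg adjustment over all probes, 45 of 61 members (73.8%) had an adjusted *P* below 0.05, 22 of them higher and 23 lower in the middle than in the early stage. Of all 15008 probes 66.5% were called, 45.3% higher and 21.2% lower. The members' share of lower calls was 37.7% and their share of higher calls 36.1%. The median log2 fold change was −0.01 over the members and 0.33 over all probes, and in 9 of 9 animals the members' median was below that of all probes. Of the 22 higher calls 7 were of members whose probe missed the background call on at least 1 array in both stages, and none of the 23 lower calls was. Without animal 4, 21 members were higher and 20 lower, where 6439 and 2960 of all 15008 probes were.

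In the second period 49 of 61 members (80.3%) were called, 31 higher and 18 lower in the late than in the middle stage, where 26.7% of all probes were called higher and 44.8% lower. The members' median log2 fold change was 0.35, and that of all probes −0.28. In 9 of 9 animals the members' median was above that of all probes. Of the 18 lower calls 11 were of members whose probe missed the background call in both stages on at least 1 array. With the 75th percentile as the scale 25 were higher and 22 lower, so that the share of higher calls was 53.2% instead of 63.3%. All probes shifted too, with 3250 of 15008 higher and 7751 lower on that scale. The members' median lay 0.63 above that of all probes on both scales. Each scale subtracts a constant per array from every probe, so this gap could not differ between them. The gap was 0.27 after quantile normalization, 0.099 with normexp background correction and 0.30 without dim probes. It was 0.36 with cyclic loess of the probes above background on all arrays. Without animal 4, 30 members were higher and 17 lower, where 3842 and 6478 of all 15008 probes were. The first and second periods share the middle arrays, so an error in those arrays would enter both with opposite signs.

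In the total period 13 members (21.3%) were called, 8 higher and 5 lower, where 11% of all probes were called higher and 9.01% lower, and the median was 0.11 over the members and 0.03 over all probes. Leaving out animal 4 raised the members' higher calls to 14, and those of all 15008 probes from 1647 to 1716. The methods' paired t-test, whose error comes from the compared stages alone, called 21 members higher and 7 lower, where 2757 and 1708 of all 15008 probes were. In the limma fit the share of higher calls was 61.5%, and 40.0% with the 75th percentile as the scale. That scale called 985 of all 15008 probes higher and 1928 lower. The members' median lay 0.08 above that of all probes on both scales, which again could not differ in this gap. The gap was −0.017 after quantile normalization, −0.016 with cyclic loess and 0.0014 with normexp, so no excess of the members held across settings. The values of the early and middle arrays did not overlap for 16 members (26.2%, against 12.9% of all probes). The middle and late arrays did not overlap for 18 members (29.5%, against 20.6%), and the early and late arrays for 11 (18%, against 6.46%).

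**Figure D1:**
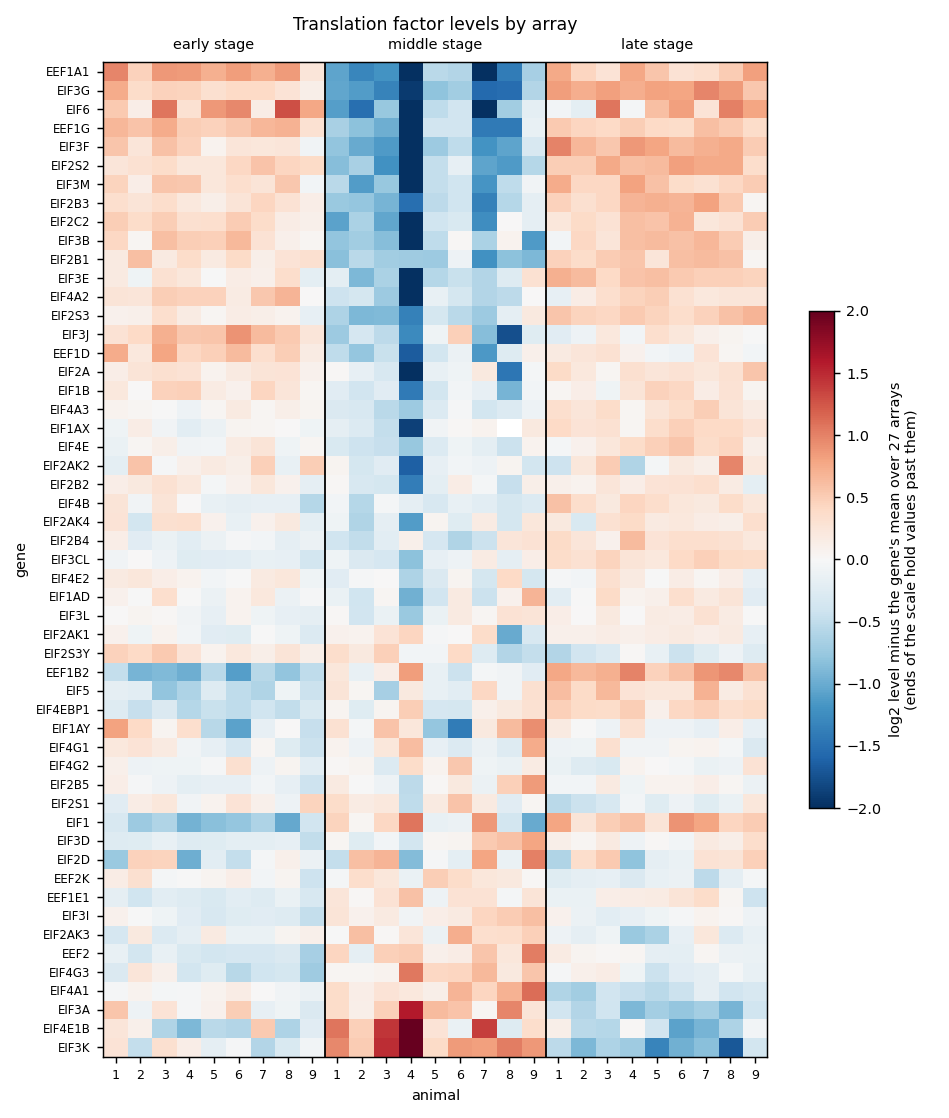
Heat map of the 53 members with a probe well above background on every array in at least 1 stage. Rows are genes ordered by their mean in the middle stage, columns are the 27 arrays by stage and animal, and color is the log2 level minus the gene's mean over all arrays; the white cell of EIF1AX in the middle array of animal 8 is a spot left out as an outlier. The upper rows, from EEF1A1 to EIF3M, were lowest in the middle stage, most in animal 4, and the lowest rows, EIF3K and EIF4E1B, were highest there.

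Changes differed with brightness over all probes, so the members were also read beside probes of like signal. With all probes split by mean level into 4 equal bins, the dimmest bin had median log2 fold changes of 1.26 (first period) and −1.37 (second period), and the brightest bin 0.01 and 0.19. Of the members 32 lay in the brightest bin, and their medians were −0.36 and 0.61. The 6 members of the dimmest bin had medians of 1.15 and −1.40, close to those of their bin. In the next-dimmest bin 10 members had 0.79 and −0.50, where all probes of the bin had 0.23 and −0.20. These members thus lay on the other side of their bin from the 32 bright ones. In the next-brightest bin 13 members had 0.01 and −0.08, where all probes had −0.03 and 0.15. After quantile normalization, which gives all arrays the same distribution, the brightest bin of all probes had medians of 0.01 and 0.05, and the 32 members −0.35 and 0.44. The next-dimmest bin then had −0.04 and 0.13, and its 10 members 0.67 and −0.25. Without animal 4 the 32 members had −0.27 and 0.51, and the brightest bin of all probes 0.05 and 0.15.

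Among the elongation factors EEF1A1, the main carrier of aminoacyl-tRNA, was lowest in the middle stage. Its level in the early stage had a lowest, median and highest value of 7.29, 7.89 and 8.03, in the middle stage of 4.73, 5.87 and 6.52, and in the late stage of 7.32, 7.56 and 7.88. All middle arrays lay below all others, and the early and late values overlapped. EEF1A1 fell by 1.97 ± 0.20 (SE, n = 9) on the log2 scale in the first period, a 3.91-fold difference (adjusted *P* = 2.81e-07, limma), and rose by 1.77 ± 0.20 in the second (adjusted *P* = 3.73e-07). The total period gave −0.20 ± 0.20 (adjusted *P* = 0.547). Without animal 4 the first 2 changes were −1.82 and 1.61. Each SE in the text is from the limma fit, which takes a single spread per gene over all 3 stages. The changes of EEF1A1 in the 9 animals had an SD of 0.73, 0.68 and 0.35 in the first, second and total periods. The SE thus does not show that the middle arrays varied more.

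Its guanine nucleotide exchange factor eEF1B did not change as a unit. EEF1G, the structural subunit, had 7.42, 7.68 and 7.86 in the early, 4.10, 6.30 and 6.97 in the middle and 7.48, 7.54 and 7.71 in the late stage, lowest, median and highest. The middle arrays again lay below all others, that of animal 4 farthest. EEF1G fell by 1.59 ± 0.24 in the first period (adjusted *P* = 1.82e-05, limma) and rose by 1.47 ± 0.24 in the second (adjusted *P* = 2.3e-05), or by −1.35 and 1.22 without animal 4. EEF1D, a catalytic subunit, fell by 1.05 in the first and rose by 0.68 in the second period, the latter not called under a random slide block, a fit that allows for error shared by the arrays of a slide. EEF1B2, the other catalytic subunit, rose in each comparison, by 0.76 ± 0.13, 0.72 ± 0.13 and, over the total period, 1.48 ± 0.13 (adjusted *P* = 1.52e-07). Its levels were −1.60, −1.29 and −0.98 in the early, −0.93, −0.58 and 0.34 in the middle and −0.04, 0.22 and 0.49 in the late stage, so early arrays lay below all others. The EEF1B2 probe was designed from a single cDNA read of a loin muscle library, passed the background call on 8 of 9 middle arrays, and the orientation of that read is not given in the sources used here. Normexp took its total-period rise to 0.38, still called.

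EEF2, the translocation factor, was highest in the middle stage. Its early levels were 9.62, 9.96 and 10.14, its middle levels 10.11, 10.72 and 11.31 and its late levels 10.10, 10.31 and 10.45, and the early and middle ranges met only at their edges, while middle and late arrays overlapped. EEF2 rose by 0.69 ± 0.12 in the first period (9 of 9 animals, adjusted *P* = 8.51e-05, limma) and fell by 0.40 ± 0.12 in the second (8 of 9 animals, adjusted *P* = 0.00691), where quantile normalization gave −0.16 and no call. The change of EEF2 exceeded that of EEF1A1 in 9 of 9 animals in the first period, by 2.66 ± 0.78 (SD), and was below it in 9 of 9 in the second, by −2.17 ± 0.78. This pair was chosen after its values were seen and was not tested. EEF2K, the kinase that inhibits eEF2, gave 0.17 in the first period and fell by 0.40 in the second, the latter not with the random slide block. EEF1E1, a small protein of the aminoacyl-tRNA synthetase complex, rose by 0.46 in the first period and gave −0.16 in the second. The call of its total-period rise of 0.30 was lost without any of animals 1 to 8, at 0.29 without animal 4, and after quantile normalization.

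**Figure D2:**
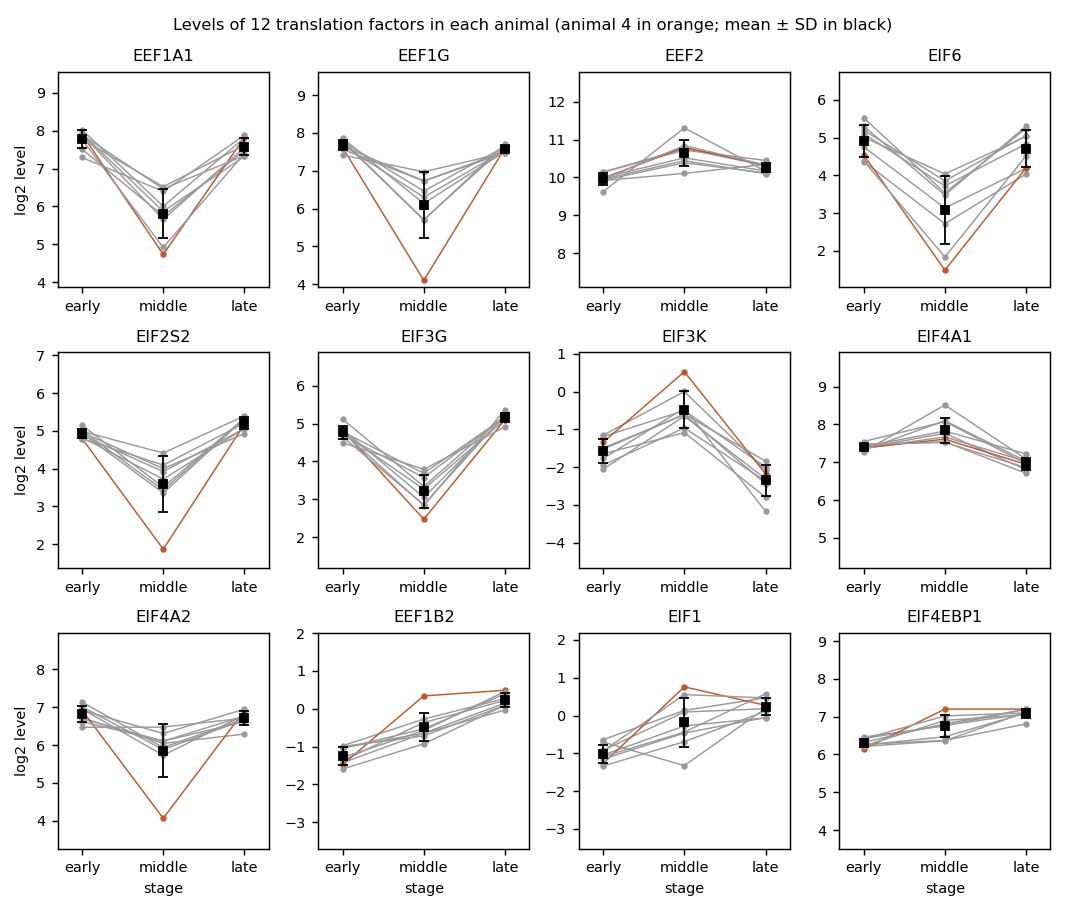
Log2 level of 12 members in each animal at the early, middle and late stages. Gray lines join the arrays of an animal, animal 4 is orange, black squares and bars are the mean ± SD of 9 animals, and all panels span the same number of log2 units. EEF1A1, EEF1G, EIF6, EIF2S2, EIF3G and EIF4A2 dip in the middle stage, EEF2, EIF3K and EIF4A1 peak there, and EEF1B2, EIF1 and EIF4EBP1 rise by the late stage.

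The eIF3 complex, the largest initiation factor, which holds the small ribosomal subunit open for the mRNA, had 13 members on the array. In the first period 5 were higher and 6 lower, where 45.3% and 21.2% of all probes were, and in the second 7 were higher and 4 lower, where 26.7% and 44.8% were. EIF3G, an RNA-binding subunit, had early levels of 4.50, 4.78 and 5.12, middle levels of 2.47, 3.27 and 3.79 and late levels of 4.91, 5.18 and 5.36, lowest, median and highest. The middle arrays lay below all others. EIF3G fell by 1.56 ± 0.15 in the first period (adjusted *P* = 1.26e-07, limma) and rose by 1.96 ± 0.15 in the second (adjusted *P* = 2.81e-09), or by −1.46 and 1.87 without animal 4. EIF3F and EIF3M, subunits of the MPN and PCI domain core, moved alike. EIF3F had 5.98, 6.30 and 6.63 in the early, 3.76, 5.05 and 5.74 in the middle and 6.56, 6.77 and 7.05 in the late stage, fell by 1.29 ± 0.18 in the first period (adjusted *P* = 1.23e-05) and rose by 1.72 ± 0.18 in the second (adjusted *P* = 2.19e-07). EIF3M fell by 1.17 and rose by 1.34, EIF3B (above background on 7 of 9 middle arrays) by 1.09 and 1.16, EIF3E by 0.77 and 1.19, and the loosely bound EIF3J by 1.12 and 0.65. The fall of EIF3E and the rise of EIF3J were not called under the random slide block.

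Other subunits of eIF3 took the opposite course. EIF3A, the scaffold subunit, had 2.05, 2.33 and 2.89 in the early, 2.37, 2.82 and 3.92 in the middle and 1.41, 1.67 and 1.96 in the late stage, where the late arrays lay below all others. EIF3A rose by 0.47 ± 0.17 in the first period (adjusted *P* = 0.0217, limma), fell by 1.19 ± 0.17 in the second (adjusted *P* = 7.8e-06) and by 0.72 ± 0.17 over the total period (adjusted *P* = 0.00633). The first-period call was lost without animal 4, at 0.33 (adjusted *P* = 0.052), and without animal 8, at 0.40, and under the random slide block neither the first nor the total period was called. EIF3K had −2.05, −1.52 and −1.15 in the early, −1.09, −0.60 and 0.52 in the middle and −3.17, −2.31 and −1.84 in the late stage. Its middle arrays lay above all others. EIF3K rose by 1.09 ± 0.15 (adjusted *P* = 9.68e-06), fell by 1.87 ± 0.15 (adjusted *P* = 7.24e-09) and over the total period fell by 0.78 ± 0.15 (adjusted *P* = 0.00127), a call lost under normexp and the random slide block. Its probe passed the background call on 9 early, 8 middle and 7 late arrays and was designed from a cDNA read of embryonic tissue whose orientation is not given in the sources used here. Normexp with its offset of 50, which draws dim probes together, gave 0.23 and −0.31 in the first 2 comparisons, both still called. Other members shrank under normexp as well and stayed called in both. EIF3B gave −0.44 and 0.44, EIF2B1 −0.35 and 0.41, EIF4E1B 0.20 and −0.20, and EIF4G3 0.13 and −0.087. EIF3I rose by 0.45 in the first period and fell by 0.32 in the second.

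EIF3D, which can itself bind the cap of some mRNAs, rose by 0.40 in the first period and gave −0.06 in the second, EIF3L gave −0.01 and 0.19 with no call, and EIF3CL gave −0.02 and rose by 0.55 in the second period and by 0.53 over the total period, the latter not with the random slide block. The change of EIF3D was above that of EIF3G in 9 of 9 animals in the first period, by 1.96 ± 0.48 (SD), and below it in 9 of 9 in the second, by −2.02 ± 0.54; this pair, too, was chosen after its values were seen. EIF3H was well above background on no array, and no fold is given.

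**Figure D3:**
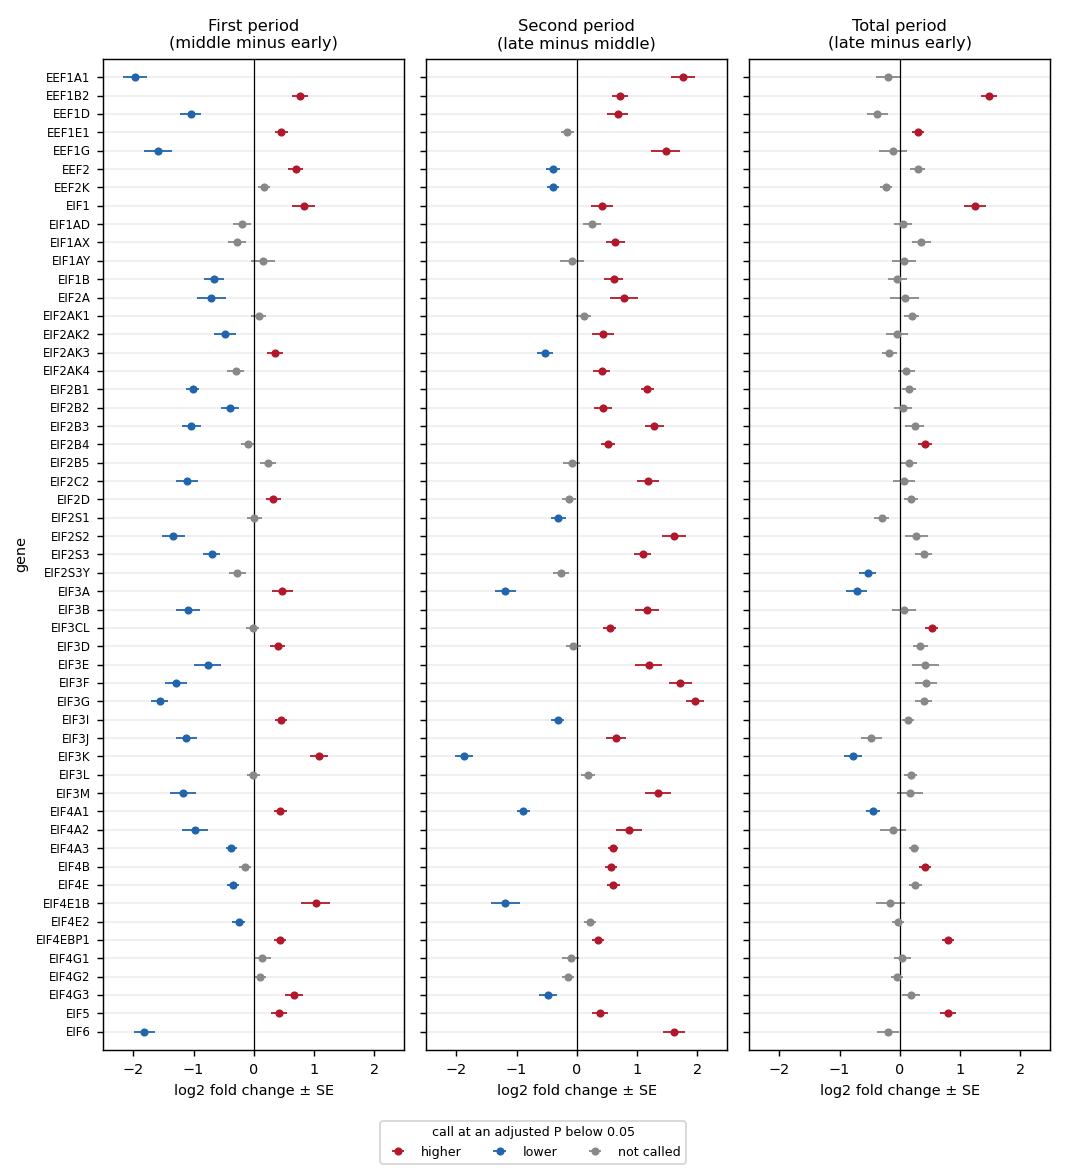
Log2 fold change ± SE of the 53 members with every array of some stage above background, for the first, second and total periods, from limma with animal as a block. Red points were called higher, blue lower and gray not called at an adjusted *P* below 0.05. Changes spanned −1.97 (EEF1A1) to 1.09 (EIF3K) in the first and −1.87 (EIF3K) to 1.96 (EIF3G) in the second period, and −0.78 (EIF3K) to 1.48 (EEF1B2) over the total period.

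Of the eIF2 subunits none rose in the first period and 2 of 4 fell, where 45.3% of all probes rose and 21.2% fell. EIF2S2, the beta subunit, had 4.79, 4.94 and 5.14 in the early, 1.87, 3.72 and 4.41 in the middle and 4.93, 5.20 and 5.39 in the late stage, and its middle arrays lay below all others. EIF2S2 fell by 1.33 ± 0.20 in the first period (adjusted *P* = 1.57e-05, limma) and rose by 1.61 ± 0.20 in the second (adjusted *P* = 1.03e-06), or by −1.14 and 1.40 without animal 4. EIF2S3, the gamma subunit that binds GTP and the initiator tRNA, fell by 0.70 and rose by 1.09. EIF2S1, the alpha subunit whose phosphorylation slows initiation, had 0.43, 0.76 and 1.11 in the early, 0.15, 0.84 and 1.23 in the middle and 0.11, 0.42 and 0.89 in the late stage, and the stages overlapped. It gave 0.01 ± 0.12 in the first period (adjusted *P* = 0.939) and fell by 0.31 ± 0.12 in the second (6 of 9 animals, adjusted *P* = 0.032), a call that was lost on leaving out any of animals 1, 2, 3, 5, 6 and 7 and that cyclic loess of the bright probes turned to 0.030. The change of EIF2S1 was above that of EIF2S2 in 9 of 9 animals in the first and below it in 9 of 9 in the second period, by 1.35 ± 0.60 and −1.92 ± 0.62 (SD), a pair chosen after its values were seen.

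Of the 5 subunits of eIF2B, which reloads eIF2 with GTP, 3 fell in the first period and 4 rose in the second. Over all probes 21.2% fell in the first and 26.7% rose in the second. EIF2B1, above background on 6 of 9 middle arrays, fell by 1.02 and rose by 1.17, EIF2B3 fell by 1.04 and rose by 1.29, and EIF2B2 fell by 0.39 and rose by 0.43. The fall of EIF2B2 was −0.24 without animal 4 (adjusted *P* = 0.073), its call was lost without animal 2, 3 or 8 too, and under the random slide block neither change was called. Its rise was not called after quantile normalization either. EIF2B4 gave −0.10, then rose by 0.52, and by 0.42 over the total period, neither with the random slide block. The catalytic subunit EIF2B5 gave 0.24 and −0.09 and was not called. The change of EIF2B5 was above that of EIF2B1 in 9 of 9 animals in the first period and below it in 9 of 9 in the second, by 1.25 ± 0.55 and −1.26 ± 0.45 (SD), again a pair chosen after its values were seen.

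Of the 4 kinases that phosphorylate eIF2 alpha, none was called over the total period. EIF2AK3, the kinase of endoplasmic reticulum stress (PERK), had −2.40, −2.19 and −1.85 in the early, −2.17, −1.73 and −1.33 in the middle and −2.79, −2.23 and −1.83 in the late stage, with the background call passed on 9, 2 and 7 of 9 arrays. It rose by 0.35 ± 0.13 in the first (adjusted *P* = 0.0194, limma) and fell by 0.53 ± 0.13 in the second period (adjusted *P* = 0.00105), and normexp background correction took the first to −0.0039. Both calls were lost under normexp, quantile normalization and the random slide block, and the first also without animal 6. EIF2AK4, the amino acid sensor GCN2, had 2.63, 3.08 and 3.32 in the early, 1.87, 2.80 and 3.21 in the middle and 2.68, 3.18 and 3.37 in the late stage. It gave −0.30 ± 0.14 (adjusted *P* = 0.0707) and rose by 0.41 ± 0.14 in the second period (adjusted *P* = 0.0159), with overlapping stages, a call lost after quantile normalization and with the random slide block. EIF2AK2, the double-stranded RNA sensor PKR, above background on 7 of 9 middle arrays, fell by 0.48 and rose by 0.44. Without animal 4 these were −0.32 (adjusted *P* = 0.0971) and 0.37 (adjusted *P* = 0.0583), so both calls were lost, as they were without animal 2 or 9 and with the random slide block. The heme-regulated EIF2AK1 gave 0.08 and 0.11 with no call. EIF2A, an alternative carrier of the initiator tRNA, fell by 0.70, or 0.45 without animal 4, and rose by 0.78, and neither was called with the random slide block. EIF2D rose by 0.33 in the first period, a call lost without animal 7 or 9 and with no animal block, and gave −0.13 in the second. The EIF2C names on the array are argonautes, the proteins that hold microRNAs. EIF2C2 (now AGO2), above background on 8 of 9 middle arrays, fell by 1.11 and rose by 1.18. EIF2C1 (now AGO1) was above background on 3, 4 and 6 of 9 arrays, and no fold is given.

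In the eIF4F group the helicases EIF4A1 and EIF4A2, which unwind the leader of the mRNA, moved in opposite directions. EIF4A1 had 7.28, 7.38 and 7.55 in the early, 7.53, 7.77 and 8.51 in the middle and 6.71, 6.97 and 7.22 in the late stage, lowest, median and highest, and its late arrays lay below all others. EIF4A1 rose by 0.44 ± 0.11 in the first period (9 of 9 animals, adjusted *P* = 0.00211, limma), fell by 0.89 ± 0.11 in the second (adjusted *P* = 1.63e-06) and by 0.45 ± 0.11 over the total period (adjusted *P* = 0.00869), the last not with the random slide block. EIF4A2 had 6.47, 6.92 and 7.14 in the early, 4.06, 6.04 and 6.48 in the middle and 6.29, 6.71 and 6.95 in the late stage. It fell by 0.98 ± 0.21 in the first period (8 of 9 animals, adjusted *P* = 0.000612) and rose by 0.86 ± 0.21 in the second (9 of 9, adjusted *P* = 0.00139), or by −0.74 and 0.61 without animal 4; under the random slide block neither was called. The change of EIF4A1 was above that of EIF4A2 in 9 of 9 animals in the first period, by 1.42 ± 0.76 (SD), and below it in 9 of 9 in the second, by −1.75 ± 0.70, a pair chosen after its values were seen. EIF4A3, the helicase of the exon junction complex, fell by 0.37 and rose by 0.60.

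EIF4E, the cap-binding protein, had 4.49, 4.67 and 4.88 in the early, 3.87, 4.33 and 4.71 in the middle and 4.60, 5.00 and 5.18 in the late stage. It fell by 0.35 ± 0.10 in the first period (8 of 9 animals, adjusted *P* = 0.00659, limma) and rose by 0.61 ± 0.10 in the second (9 of 9, adjusted *P* = 4.53e-05), with overlapping stages. The first-period call was lost with the slide as a random block, at −0.30. EIF4EBP1, the TOR-regulated inhibitor that keeps eIF4E from eIF4G, had 6.14, 6.26 and 6.46 in the early, 6.36, 6.77 and 7.20 in the middle and 6.81, 7.10 and 7.20 in the late stage, so all late arrays lay above all early ones. EIF4EBP1 rose by 0.44 ± 0.10 in the first (adjusted *P* = 0.000969), 0.35 ± 0.10 in the second (adjusted *P* = 0.0045) and 0.79 ± 0.10 over the total period (adjusted *P* = 1.92e-05). The second-period call was lost after quantile normalization, at 0.23, and with the random slide block. Of the scaffolds, EIF4G1 gave 0.14 and −0.10 and EIF4G2 0.10 and −0.15 with no call, and EIF4G3 (8 of 9 middle arrays above background) rose by 0.67 and fell by 0.48, the fall lost after quantile normalization and with the random slide block. EIF4B, which stimulates the helicase, gave −0.15, then rose by 0.57 and over the total period by 0.41, the latter lost after quantile normalization and with the random slide block. Of the relatives of EIF4E, EIF4E1B rose by 1.03 and fell by 1.19, and EIF4E2 fell by 0.25 and gave 0.22, both above background on 7 of 9 middle arrays. The call of EIF4E2 was lost on leaving out any of animals 1, 2, 3, 4, 5, 7 and 9, at −0.20 without animal 4, and with the random slide block.

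EIF6, which keeps the ribosomal subunits apart and takes part in making the large one, was among the members that fell most. It had 4.37, 5.01 and 5.52 in the early, 1.49, 3.48 and 4.04 in the middle and 4.03, 4.83 and 5.30 in the late stage. The middle arrays lay below all early arrays and met the late ones at the edge. EIF6 fell by 1.82 ± 0.18 in the first period (9 of 9 animals, adjusted *P* = 2.45e-07, limma) and rose by 1.62 ± 0.18 in the second (9 of 9, adjusted *P* = 3.51e-07), or by −1.66 and 1.48 without animal 4.

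EIF5, which triggers GTP hydrolysis by eIF2 at the start codon, had 6.51, 6.86 and 7.21 in the early, 6.63, 7.34 and 7.70 in the middle and 7.46, 7.59 and 7.98 in the late stage. EIF5 rose by 0.42 ± 0.13 in the first (adjusted *P* = 0.0085, limma), 0.38 ± 0.13 in the second (adjusted *P* = 0.0151) and 0.80 ± 0.13 over the total period (adjusted *P* = 0.000277). None of these was called under the random slide block, and the second-period call was lost after quantile normalization and without animal 3, at 0.26. The late arrays lay above all early ones. EIF1, which guards start codon choice, had −1.33, −1.05 and −0.64 in the early, −1.32, −0.27 and 0.76 in the middle and −0.06, 0.19 and 0.57 in the late stage. It rose by 0.83 ± 0.18, 0.42 ± 0.18 and 1.25 ± 0.18 in the first, second and total periods (adjusted *P* = 0.000727, 0.0478 and 9.66e-05), was above background on 7 of 9 middle arrays, and its probe, too, came from a loin cDNA read. Normexp took these rises to 0.25, 0.07 and 0.32, that of the second period no longer called. The second-period call of EIF1 was lost on leaving out any of animals 1, 2, 3, 5, 6, 8 and 9, at 0.28 without animal 9, and after quantile normalization, and the random slide block lost those of the first and second periods. EIF1B fell by 0.66 and rose by 0.61, neither with the random slide block. EIF1AX, which promotes scanning together with EIF1, gave −0.28 and rose by 0.64 (not with the random slide block), and EIF1AY and EIF1AD were not called in any period. EIF2S3Y, above background on 4 of 9 middle arrays, was called over the total period alone, at −0.53, and not after quantile normalization or with the random slide block.

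EIF5A, the hypusine-bearing factor that helps the ribosome through proline stretches, is among the textbook nodes, but its probe was well above background on none of 27 arrays. The same held for EEF1A2, the muscle and nerve form of eEF1A, for EIF3H and for EIF4E3. EIF5A2 and EIF4H were well above background on 2 arrays and on 1 array. EIF4ENIF1, a transporter of eIF4E, was so on 22 arrays. The largest rises called in the first period were of EEF1A2, EIF3H and EIF5A, and EIF3H and EIF5A2 followed EIF3K among the largest falls of the second and EIF4E3 led those of the total period, so those calls compared signals near background and no fold is given. The probes of EIF3H, EIF4H and EIF5A also derive from loin cDNA reads, 3 of 5 such member probes.

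**Figure D4:**
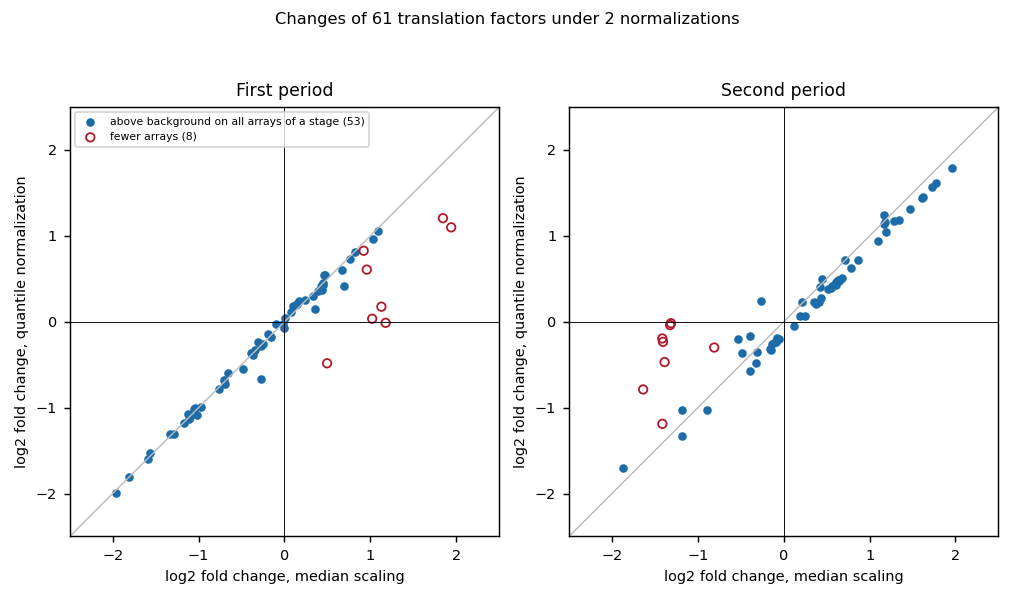
Log2 fold change of all 61 members after median scaling (x axis) against that after quantile normalization (y axis) in the first and second periods, with the line of equality in gray. The 53 filled points, whose probes passed the background call on every array of some stage, lie near the line, and the 8 open points, the others, lie closer to 0 on the y axis than on the x axis.

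With quantile normalization 18 members were higher and 24 lower in the first period, where 24.6% and 23.1% of all probes were called (47.7% in all), and 26 higher and 11 lower in the second, where 27% and 25.8% were (52.8% in all). Under the random slide block 16 were higher and 15 lower in the first period, where 32.8% and 12.7% of all probes were called (45.5% in all). In the second 18 were higher and 13 lower, where 16.0% and 34.1% were (50% in all). In the total period 3 were higher and 0 lower, where 1.65% of all probes were called, and 9 members had an unadjusted *P* below 0.05. With the slide as a fixed block, which could be fitted for the first period alone, 4 members were higher and 0 lower, 14 had an unadjusted *P* below 0.05, and 7 of the called changes turned in sign, none of them called. Of all 15008 probes 1035 were higher and 220 lower in that fit. Only the arrays of animals 8 and 9 part stage from slide there, so the turns in sign rest on few arrays. Within slide 2, where 7 middle arrays stood beside a single early array, the members' median log2 fold change was 0.06 and that of all probes 0.22. All 45 first-period calls kept their sign there, but those arrays are also part of the main fit, and the early side is a single array. Of the 45 calls 27 held under 75th percentile scaling, quantile normalization, normexp and the random slide block, 12 higher and 15 lower. Of the 49 calls of the second period 24 held, 18 higher and 6 lower. Of the 13 calls of the total period 3 held, those of EEF1B2, EIF1 and EIF4EBP1.

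Other genes of the pathway were counted from lists, to be read beside the shares over all probes, 45.3% higher and 21.2% lower in the first period and 26.7% and 44.8% in the second. The enzymes that modify EIF5A and EEF2, namely hypusine and diphthamide synthesis, were represented by 6 genes, of which 6 fell in the first period (5 after quantile normalization) and 5 rose in the second, where 21.2% of all probes fell and 26.7% rose. DHPS, the first enzyme of hypusine synthesis, fell by 1.60 ± 0.15 and rose by 2.00 ± 0.15 (adjusted *P* = 1.35e-07 and 2.99e-09, limma). Of 22 cytosolic aminoacyl-tRNA synthetases and their AIMP scaffold proteins, 2 rose and 12 fell in the first period, and 12 rose and 4 fell in the second. KARS, the lysyl-tRNA synthetase, fell by 2.34 ± 0.21 and rose by 2.51 ± 0.21 (adjusted *P* = 6.28e-08 and 8.03e-09), and LARS, the leucyl-tRNA synthetase, fell by 1.39 in the second period. FARSB, the largest rise of the first, was above background on no array. Over the total period 5 fell and none rose, where 9.01% of all probes fell and 11% rose. Among the 5 was AIMP2, above background on 8 early and 2 late arrays, whose call was lost after quantile normalization.

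Of 12 genes of the integrated stress response, the program set off by eIF2 alpha phosphorylation, 2 rose and 6 fell in the first period and 8 rose and 2 fell in the second. DDIT3, the stress transcription factor CHOP, rose by 1.28 and the adaptor NCK1 fell by 0.97 in the first period. ASNS, asparagine synthetase, rose by 1.04 in the second. PPP1R15A, the phosphatase subunit that reverses eIF2 alpha phosphorylation, was called lower in the late than in the middle and early stages, but passed the background call on 1 late array only (9 early and 6 middle), so no fold is given. Its total-period call was lost after quantile normalization. IMPACT, an inhibitor of GCN2, rose by 1.06 over the total period.

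Of 18 partners of eIF4F and genes of TOR signaling, 6 rose and 5 fell in the first period and 5 rose and 4 fell in the second. RHEB, the GTPase that activates TOR, fell by 1.24 and rose by 1.14, and PABPC1, the poly(A)-binding protein that joins eIF4G, rose by 1.06 and fell by 0.97. Over the total period DDIT4, an inhibitor of TOR, rose by 0.52 and MTOR fell by 0.52, and both calls were lost after quantile normalization and on leaving out animal 1, 4 or 7. Of 8 termination and recycling factors, 2 rose and 3 fell in the first period and 5 rose and 1 fell in the second. The rescue factor PELO fell by 1.01 in the first period, the release factor GSPT1 rose by 1.13 in the second period and by 0.45 over the whole, and its relative GSPT2 rose by 1.01, then fell by 1.85 and fell by 0.84 over the total period. The total-period calls of both were lost after quantile normalization and on leaving out animal 1, 3, 5 or 6. Of 10 mitochondrial translation factors, 2 rose and 2 fell in the first period and 5 rose and 2 fell in the second. TUFM, the mitochondrial counterpart of eEF1A, fell by 1.35 and rose by 1.23, the initiation factor MTIF2 rose by 0.54 and fell by 0.69, and the recycling factor MRRF rose by 0.75 over the total period. In bulk tissue a smaller share of the cells that carry an mRNA and less of it per cell cannot be told apart for any of these values.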

How the data were processed

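RNA of 27 RE biopsies was measured on 1-color arrays. The deposited intensity values come from scans that the authors read with Agilent Feature Extraction (9.5 in the submitters' processing notes, 11.0.1.1 in the file headers), which subtracts local background and calls spots above background or outliers. The log2 table deposited by the authors equals log2 processed signal minus a constant near the 75th percentile of each array, within 0.0806, and was an alternative. Of 15646 spots, 15110 were not controls and held 15008 probes. Log2 signals were centered on the array median (the methods' scaling), 103 outlier spots were dropped and duplicate spots averaged. limma 3.58.1 in R 4.3.3 fitted stage means with animal as a block over all probes, with Benjamini-Hochberg adjustment per comparison at 0.05.

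Each animal was sampled at all 3 stages, and arrays were paired by the number at the end of their titles. The titles do not say that a number marks the same animal in each stage. That match was assumed, and every statement on single animals rests on it. Deviations from stage means had a mean correlation of 0.158 within animals (−0.151 to 0.461) and of −0.020 between animals. The members, lists and tests were chosen with earlier results of these data known. Full values are given for the 3 largest called rises and falls of each comparison, members called in all 3 and chosen textbook nodes. Pathway lists give the called gene with the largest rise and fall. Gene names are those of the array. Accession matched 46 members and symbol 14 to the RefSeq gene table of ARS-UCD2.0, and EIF2S3Y was unmatched. No column went unassigned. The fit was tested on simulated data of 14954 probes with 100 changed by each size, where 68.0% of changes of 1 on the log2 scale and 21.0% of changes of 0.5 were recovered in the first period, with 4.30% of calls false. The simulated noise was independent, equal in all stages and without a slide effect, and few probes changed, whereas 66.5% were called in the data. These figures check the code and do not give the recovery or the false share of the calls above. Arrays give no read depth, and 9 arrays a stage and signal over background limit precision. Alternatives were scaling, background correction, probe and outlier filters, slide, scan day and animal blocks, the methods' paired t-test with Benjamini-Hochberg adjustment, factor subunits alone and each animal left out.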

Additional observations from a re-analysis of the deposited data

Results flagged for a closer look

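In 183 groups of 9 arrays (1 with 8), formed by 61 members and 3 stages, 22 held an array whose gap to the next was above Dixon's critical value for its range, where chance gives about 1 in 20, or 9.15. In the middle stage, animal 4 was lowest for EEF1G (4.10), EIF1AX (6.02), EIF2AK2 (−1.68), EIF2B2 (3.16), EIF2S2 (1.87), EIF3CL (6.97), EIF3E (4.87), EIF3F (3.76), EIF3M (3.22) and EIF4A2 (4.06), which makes all 10 groups of that stage. The same array had the lowest median signal, 8.22.

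In the early stage animal 9, the early array that shared slide 2 with middle arrays, was lowest for EEF2 (9.62) and EIF3D (8.02). Animal 1 was highest for EIF2C1 (−1.68), animal 8 for EIF3H (−3.60) and EIF4H (−1.75) and animal 6 for EIF5A2 (−1.13). Of these 4 spots that of EIF3H was not well above background. In the late stage the lowest arrays were animal 4 for EIF1AX (7.91), animal 9 for EIF2AK1 (4.03) and EIF2B2 (4.35), animal 2 for EIF2AK4 (2.68), animal 1 for EIF4A2 (6.29) and animal 5 for EIF4EBP1 (6.81). All are log2 levels relative to the array median.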

How the results depend on the processing

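Under the slide as a fixed block, which could be fitted for the first period alone, 4 members were higher and 0 lower, the median log2 fold change was 0.37, and the changes of EIF1 (−0.12), EIF1B (0.46), EIF2A (0.94), EIF2B2 (0.40), EIF3A (−0.16), EIF3J (0.78) and EIF4E (0.11) turned, none called. The median over all probes in that fit was 0.45. Within slide 2, with a single early array, the members' median was 0.06. With the slide as a random block, 15 members were lower in the first, 18 higher in the second, and 3 higher and 0 lower in the total period. Cyclic loess of the 6797 probes above background on all arrays held 41 members. Of these 11 were higher and 21 lower in the first, 22 and 9 in the second and 5 and 5 in the total period. Of the 6797 probes 2237 were higher and 2164 lower in the first, 2405 and 2380 in the second and 942 and 1044 in the total period. The members' median of the total period was −0.011. Cyclic loess turned EIF2S1 to −0.34 in the first (called) and 0.030 in the second period. Normexp turned EIF2AK3 (−0.0039) and EIF4H (−0.031) in the first period and gave medians of 0.090 in the second and 0.0049 in the total period. The 75th percentile gave medians of 0.17 in the second and −0.0096 in the total period, with 9 lower in the latter, and the authors' deposited log2 values 0.17 and −0.0062, with 9 lower. Over all probes the medians with the 75th percentile were −0.45 and −0.088. Quantile normalization gave 11 lower and a median of 0.23 in the second period, and 5 higher and a median of 0.011 in the total period, where 7.2% of all probes were higher. Without dim probes 31 of 53 members were higher and 10 lower in the second period, where 3983 and 2900 of 10165 probes were. The methods' paired t-test called 21 members higher and 7 lower in the total period, where 2757 and 1708 of 15008 probes were. The share of higher among called members was 48.9%, 63.3% and 61.5% in the 3 periods, and 42.9%, 70.3% and 45.5% after quantile normalization. The cause of these shifts was not tested.

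Leaving out 1 animal at a time gave 20 to 22 higher and 20 to 23 lower members in the first period, 28 to 31 and 16 to 19 in the second, and 7 to 14 and 4 to 6 in the total period. The medians were −0.06 to 0.05, 0.26 to 0.39 and 0.07 to 0.14, and 14 higher calls came without animal 4, where 1716 of 15008 probes were higher. With no animal block, 21 were higher and 23 lower in the first period, 29 and 18 in the second and 10 and 4 in the total period, so the replicate block moved no count by over 1.5 times. Each member has 1 probe, so taking the lowest-signal probe gives the same values. Slide and scan day as fixed blocks, and fits within a slide or scan day, gave no value for the late stage, which shares neither with the others.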
